A study of Mus musculus with 4 samples.

Results

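The nuclear hormone receptors are transcription factors that carry a DNA-binding domain and, in most members, a pocket that can bind a small lipophilic ligand. The 44 members described here were chosen by gene symbol, from the 32617 genes of the count table: the steroid, NR4A, estrogen-related, PPAR, RXR, retinoic acid, thyroid hormone, vitamin D, REV-ERB, ROR, bile acid, xenobiotic, HNF4, testicular, COUP-TF, NR5A, NR6A and DAX receptors, without the LXR genes Nr1h2 and Nr1h3. Messenger RNA was sequenced from mouse macrophages grown out of pooled blood, in 4 libraries. The first group was classically activated macrophages (CAM) treated with the peptide mML56, which imitates Ninj1 in soluble form, a membrane protein named for nerve injury (2 libraries, called peptide libraries 1 and 2, in mice labelled C57BL/7J). The others were CAM without the peptide (1 library, C57BL/6J) and macrophages kept in M-CSF alone (1 library, C57BL/6J). All groups shared their making: blood of 60 mice aged 10 to 16 weeks, 1 ml from each, was pooled as the experiments required, monocytes were selected by CD11b, and the cells were cultured for 6 or 7 days with M-CSF at 30 ng/ml. The CAM and peptide groups also received lipopolysaccharide (LPS), a bacterial cell wall product, at 500 ng/ml and the cytokine interferon gamma (IFNγ) at 20 ng/ml. No source used here gives the dose or duration of the peptide.

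Many of these receptors bind DNA as heterodimers with an RXR, the shared partner of the PPARs and of the retinoic acid, thyroid hormone and vitamin D receptors. Others act as homodimers, such as the glucocorticoid receptor, or as monomers, such as the REV-ERBs. In macrophages the glucocorticoid receptor and PPARγ are known for restraining inflammatory genes, and the REV-ERBs link such genes to the circadian clock.

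The totals were 12842680 and 12119427 estimated counts in peptide libraries 1 and 2, 10333986 in CAM and 12414586 in M-CSF. Genes with a count numbered 16653 and 16916 in the peptide libraries, 14772 in CAM and 17446 in M-CSF. Mitochondrial genes took 1.32% and 1.01% of the counts in the peptide libraries, 1.63% in CAM and 6.08% in M-CSF. The genes Lars2 and Gm15662 together took 10.5% and 7.79% in the peptide libraries, 14.15% in CAM and 6.40% in M-CSF. All 10 macrophage markers looked up stood above 1 CPM (counts scaled to library size by TMM) in every library, and summed to 6019 and 5114 CPM with the peptide, 7872 CPM in CAM and 23291 CPM in M-CSF. Most of that sum was Lyz2 (2837 and 2370 CPM with the peptide, 4554 CPM in CAM and 20859 CPM in M-CSF), and the markers did not move together: Csf1r, Cd68, Tyrobp and Lyz2 were among those lower in CAM over M-CSF, and Adgre1, Fcgr1, Itgam and Cd14 were higher. Markers of other cell types differed between groups too. Dendritic cell markers summed to 16.1 and 16.5 CPM with the peptide, 65.5 CPM in CAM and 7.51 CPM in M-CSF (7 markers, Cd209a listed at 0 throughout). Neutrophil markers summed to 262 and 270 CPM with the peptide, 90.9 CPM in CAM and 177 CPM in M-CSF (10 markers, with S100a9, Ly6g, Retnlg and Elane at 0 throughout). Nearly all of this was Csf3r, at 254 and 260 CPM with the peptide, 70.0 CPM in CAM and 169 CPM in M-CSF, while S100a8 and Mmp8 were called higher in CAM over M-CSF. B cell markers summed to 1.29 and 2.16 CPM with the peptide, 2.38 CPM in CAM and 113 CPM in M-CSF (6 markers, Pax5 among those at 0 throughout). Platelet markers summed to 14.0 and 12.3 CPM with the peptide, 5.41 CPM in CAM and 83.3 CPM in M-CSF (6 markers, Gp1bb at 0 throughout), and T and NK cell markers to 6.53 and 6.48 CPM with the peptide, 9.96 CPM in CAM and 19.5 CPM in M-CSF (8 markers, Cd3e, Cd3g and Gzma at 0 throughout). Fibroblast and endothelial markers summed to 164 and 191 CPM with the peptide, 156 CPM in CAM and 124 CPM in M-CSF, most of it Kdr and Vwf. Erythroid and mast cell markers stayed under 3 CPM in sum in every library. The part of other cells and of depth in the results below was not tested. In bulk RNA, fewer cells of a type and less RNA per cell cannot be told apart.

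Of the 44 receptors, 25 passed the filter on low counts and were tested, and 19 did not. Of the untested members, 10 had no count in any library after rounding: Esrrb, Hnf4a, Hnf4g, Nr0b1, Nr0b2, Nr2e1, Nr5a1, Nr5a2, Pgr and Thrb. The other 9 had between 1 and 10 counts in their highest library. Among these, Nr1h4, the bile acid receptor FXR, had 10 and 6 counts in the peptide libraries and none in CAM or M-CSF, and Vdr, the vitamin D receptor, had 1 count in peptide library 1 and none elsewhere. Ppara, the fatty acid sensor PPARα, had 3 and 5 counts with the peptide, 8 in CAM and 9 in M-CSF. Rarb, Rxrg, Nr1i2, Nr1i3, Nr2f1 and Nr2f2 had 0 to 3 counts in each peptide library, 0 to 3 in CAM and 1 to 9 in M-CSF. An exact 0 is described as listed at 0, because it can be a failed estimate in this table: Eif1, a translation initiation factor that most cells use, was listed at 0 in CAM but stood at 47.8 and 60.8 CPM with the peptide and 33.1 CPM in M-CSF. Values other than 0 can be doubtful too: Rplp0, a ribosomal protein gene that most cells use, stood at 1.89 and 1.41 CPM with the peptide, 19.9 CPM in CAM and 0.518 CPM in M-CSF. By counting error alone, a count of 0 allows a level of up to 0.258 and 0.249 CPM in the peptide libraries, 0.325 CPM in CAM and 0.194 CPM in M-CSF.

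Nr1d1 and Nr1d2, the REV-ERB genes, which were low in CAM and higher with the peptide, and Rxra, an RXR gene listed at 0 in CAM, are shown here by the bases before one of their RefSeq starts (build GRCm38.p6), read on the gene's own strand and cut back to the bases outside annotated exons. Capitals mark exact matches to a searched motif. These are GAAANNGAA (ISRE) in Nr1d1, AGGTCA on the gene's strand (the half-site that many nuclear receptors bind) and GGNNTTTCC on the other strand (NF-kB) in Nr1d2, and AGGTCA on both strands in Rxra. The Nr1d1 window is chr11:98775378-98775627 on the minus strand, the Nr1d2 window chr14:18239128-18239356 on the minus strand, and the Rxra window chr2:27709042-27709291 on the plus strand, before a start that lies inside the gene.
Nr1d1: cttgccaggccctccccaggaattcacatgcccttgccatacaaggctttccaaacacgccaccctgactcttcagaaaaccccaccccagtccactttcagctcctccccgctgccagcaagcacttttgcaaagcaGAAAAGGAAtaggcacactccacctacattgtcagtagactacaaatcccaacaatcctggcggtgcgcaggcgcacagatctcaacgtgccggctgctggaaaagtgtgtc
Nr1d2: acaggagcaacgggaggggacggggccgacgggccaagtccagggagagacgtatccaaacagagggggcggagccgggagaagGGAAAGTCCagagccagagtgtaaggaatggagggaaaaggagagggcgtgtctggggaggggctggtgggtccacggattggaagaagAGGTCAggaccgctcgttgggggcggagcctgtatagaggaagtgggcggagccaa
Rxra: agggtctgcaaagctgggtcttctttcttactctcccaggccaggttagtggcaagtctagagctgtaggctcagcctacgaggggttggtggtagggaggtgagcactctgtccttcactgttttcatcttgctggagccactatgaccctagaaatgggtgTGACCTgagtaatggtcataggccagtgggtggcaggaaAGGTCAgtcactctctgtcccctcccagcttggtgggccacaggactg

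In the table of starts, 40 of the 44 receptors matched, with 60 windows of 300 bases (250 before and 50 after the start), out of 32851 windows in all. On either strand AGGTCA lay in 12 of the 60 windows (20%), belonging to 11 receptors, against 16.3% of all windows. CACGTG, the E-box that clock factors bind, lay in 6 (10%) against 7.15% of all windows. TTCNNNGAA (STAT) lay in 6 (10%) against 8.3%, and GAAANNGAA in 3 (5%) against 8.56%. GGNNTTTCC lay in 3 (5%) against 5.82%, TGANTCA (AP-1) in 3 (5%) against 7.81%, and TGACGTCA (CRE) in 2 (3.33%) against 1.79%. Both windows of Pparg with a match held AGGTCA, 28 and 9 bases before the start. None of the matches named for these receptors overlapped a match to another motif. Hnf4g, Nr3c1, Nr5a1 and Thra were not matched. A match is a description of letters, not a binding site.

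Per kilobase of exon, the glucocorticoid receptor gene Nr3c1 was the most abundant receptor in every library, at 59.3 and 51.8 CPM per kb with the peptide, 67.6 in CAM and 21.2 in M-CSF. In M-CSF it was followed by Nr1d2 (13.9 CPM per kb), Rara (13.5), Pparg (9.63), Rxrb (8.09), Nr1d1 (6.57) and Nr2c2 (6.45). The plot of levels per kilobase shows all 25 tested receptors, from the highest to the lowest in M-CSF. All other levels are in CPM, which are comparable between libraries for 1 gene but not between genes.

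**Figure D1:**
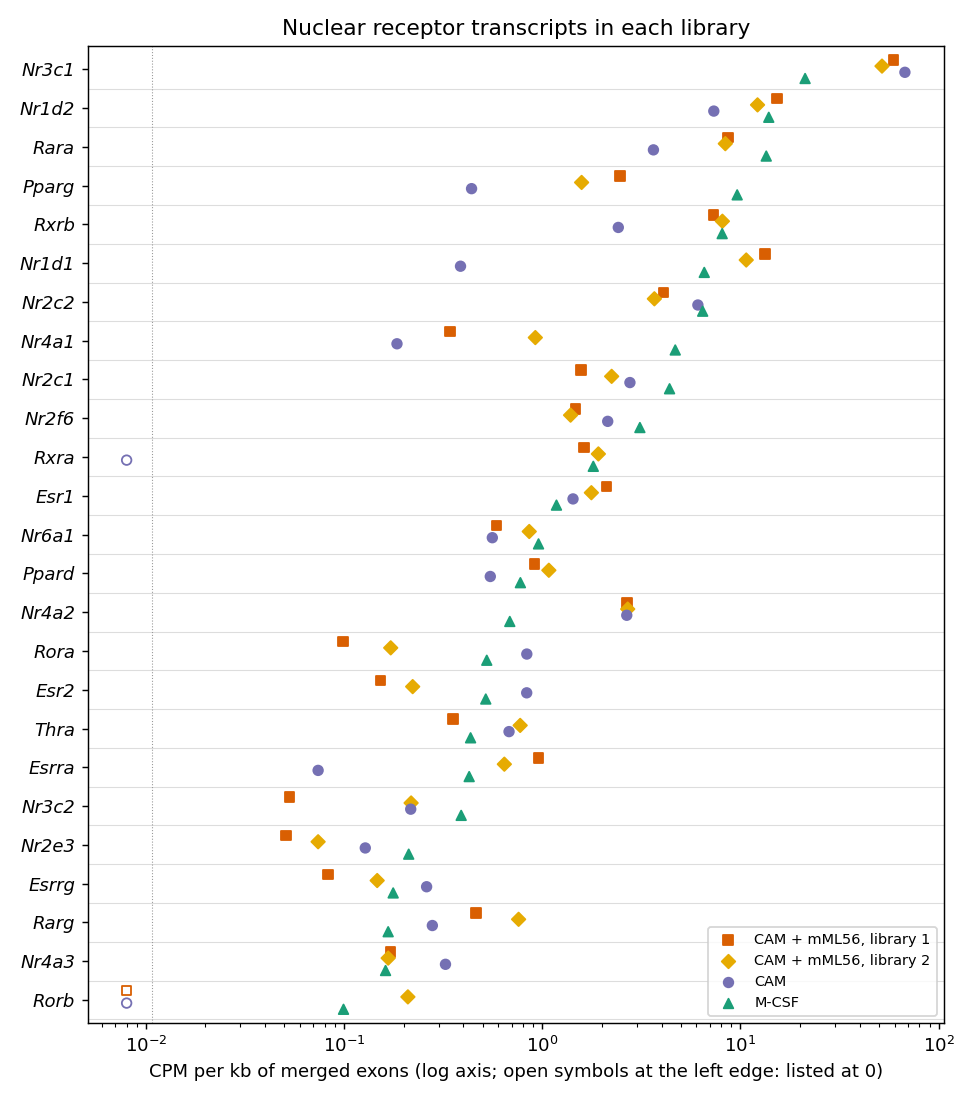
Levels of the 25 tested receptors in each library, in TMM-scaled CPM per kb of merged exons on a log axis, with 1 point per library (both peptide libraries, CAM and M-CSF) and open symbols at the left edge for a gene listed at 0. Nr3c1 is the highest, from 51.8 to 67.6 in the 3 activated libraries and at 21.2 in M-CSF, and Pparg, Nr1d1 and Nr4a1 have their lowest point in CAM.

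Activation with LPS and IFNγ was compared first, CAM against M-CSF, with edgeR's quasi-likelihood F test on all 4 libraries and Benjamini-Hochberg adjustment over the 14104 genes tested, at a threshold of 0.05. In CAM 8 receptors fell (Nr1d1, Pparg, Nr4a1, Rxra, Esrra, Rara, Rxrb and Nr1d2), 2 rose (Nr3c1 and Nr4a2) and 15 did not pass. That is 32.0% of the tested receptors lower, beside 23.0% of all tested genes, and 8.0% higher, beside 21.4% of all tested genes. The share lower includes Rxra, whose call rests on a 0 in CAM that may be a failed estimate. Their median log2 fold change was −0.66, also with genes listed at 0 set to their counting limit, beside −0.07 for all tested genes. With library size as the only scaling the median of all genes became −0.55 and 28.6% of all calls were higher, against 48.2% with TMM. The spread behind every test came from the 2 peptide libraries, and CAM and M-CSF were assumed to vary like them. Separate cultures are not stated for the libraries in the labels, so the p-values measure only the spread between these samples, which may be technical.

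The peptide group was then compared with CAM. With the peptide 7 receptors rose (Nr1d1, Rxra, Esrra, Pparg, Rxrb, Rara and Nr1d2), 3 fell (Rora, Esr2 and Nr2c2) and 15 did not pass. That is 28% higher beside 20.6% of all tested genes, and 12% lower beside 17.1% of all tested genes. The share higher includes Rxra, whose call rests on the same 0 in CAM. The median log2 fold change of the receptors was 0.37, also with the genes listed at 0 at their counting limit, and that of all genes was 0.05. This comparison and that of CAM with M-CSF share the single CAM library, so a low value in that library alone gives a gene opposite signs in both. The values of each are given side by side for each receptor, with the comparison of the peptide group with M-CSF, which does not use that library.

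Against M-CSF, 4 receptors were called higher with the peptide (Nr4a2, Nr3c1, Nr1d1 and Esr1), 7 lower (Nr4a1, Pparg, Rora, Nr2c1, Nr2f6, Nr2c2 and Rara) and 14 did not pass. The shares were 16.0% higher beside 22.1% of all tested genes, and 28% lower beside 19.0%. The median log2 fold change was −0.07 for the receptors and −0.08 for all genes. With library size as the only scaling the median of all genes was −0.46, and 33.2% of all calls were higher against 53.8% with TMM.

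**Figure D2:**
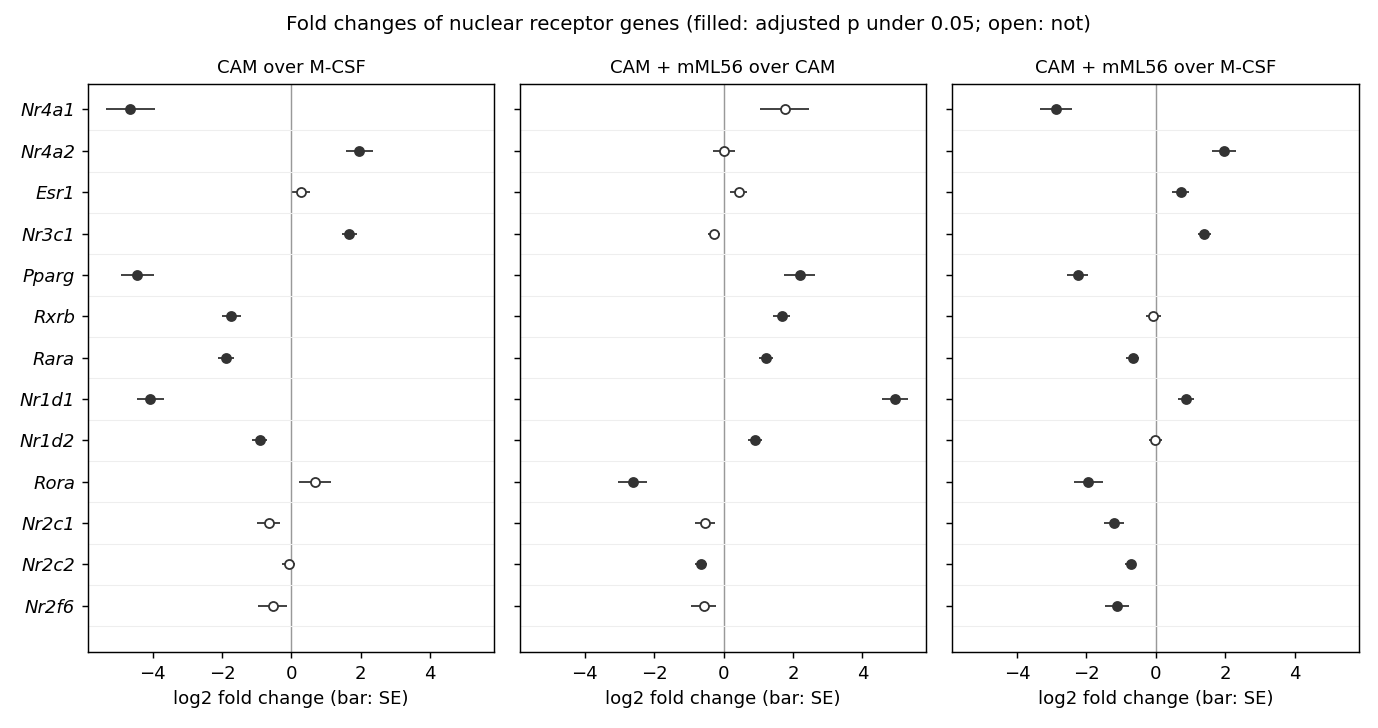
Log2 fold change of 13 receptors that passed in at least 1 comparison and reached 5 CPM in a library, in CAM over M-CSF, in the peptide group over CAM and in the peptide group over M-CSF, with bars for the standard error and filled points where the adjusted p was under 0.05. Rxra is left out because it is listed at 0 in CAM. Nr4a1, Pparg and Nr1d1 lie below −4 in CAM over M-CSF, and Nr1d1 lies at 4.94 in the peptide group over CAM.

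The REV-ERB genes encode heme-binding repressors of the circadian clock, and the RORs are activators that bind the same DNA elements. Nr1d1 (REV-ERBα, chr11:98767932-98775333 in mm10) stood at 41.0 and 32.8 CPM in the peptide libraries, 1.19 CPM in CAM and 20.2 CPM in M-CSF. The CAM library was the lowest, and both peptide libraries were above M-CSF. In CAM over M-CSF its log2 fold change was −4.07 ± 0.388 (SE; adjusted p = 2.28e-06), and in the peptide group over CAM it was 4.94 ± 0.367 (adjusted p = 1.77e-06). The CAM value rests on 11 counts, and the counting interval (exact, 95%) of the peptide over CAM ratio of 30.9 runs from 17.2 to 62.2. Over M-CSF the peptide group was higher by 0.87 ± 0.241 (log2; adjusted p = 0.0112), a call that ended with DESeq2 and with library size as the only scaling. Nr1d1 overlaps Thra, the thyroid hormone receptor α gene, on the opposite strand, and no source used here gives the strand setting of the counting. Reads of that shared stretch could not be assigned with certainty. Thra itself stood at 1.63 and 3.57 CPM with the peptide, 3.14 CPM in CAM and 2.01 CPM in M-CSF and passed in no comparison.

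Nr1d2 (REV-ERBβ, chr14:18204054-18239127) followed at a smaller size. It stood at 82.8 and 66.1 CPM with the peptide, 39.7 CPM in CAM and 75.3 CPM in M-CSF, so that the peptide libraries lay on either side of M-CSF. It fell by 0.92 on the log2 scale in CAM over M-CSF (SE 0.220, adjusted p = 0.00412), a call that ended with DESeq2, and rose by 0.91 in the peptide group over CAM (SE 0.198, adjusted p = 0.00331). The difference between the peptide group and M-CSF was −0.02 ± 0.184 (log2, adjusted p = 0.953), and became −0.41, past the threshold, with library size as the only scaling.

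Rora (RORα) had a different pattern. Its level was 1.29 and 2.24 CPM with the peptide, 10.9 CPM in CAM and 6.87 CPM in M-CSF, and both peptide libraries were below the other libraries. It fell with the peptide by 2.62 on the log2 scale over CAM (SE 0.421, adjusted p = 4.40e-04) and by 1.95 over M-CSF (SE 0.422, adjusted p = 0.00222), the second of which was not called by DESeq2. CAM over M-CSF gave 0.67 (adjusted p = 0.260). Rorb (RORβ), at 0 and 2.33 CPM in the peptide libraries, listed at 0 in CAM and at 1.10 CPM in M-CSF, passed in no comparison with TMM. With relative log expression size factors it passed as lower in CAM over M-CSF and higher in the peptide group over CAM. Both of those calls rest on the 0 in CAM.

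Clock partners of these receptors were looked up as a list of 16 genes, 14 of which were tested. In CAM over M-CSF 5 were higher (35.7%) and 4 lower (28.6%), or 3 and 5 with library size as the only scaling. In the peptide group over CAM 5 were higher (35.7%) and 4 lower (28.6%). Over M-CSF that group had 5 higher and 5 lower (35.7% each). Among all tested genes the shares higher and lower were 21.4% and 23.0%, 20.6% and 17.1%, and 22.1% and 19.0%, in the same order. With library size as the only scaling these shares were 13.8% and 34.6%, 22.1% and 14.0%, and 14.6% and 29.4%. The counts of each list are to be read beside the shares of the same scaling, and no list was tested as a set. The median log2 fold changes of the clock partners were −0.14, 0.41 and 0.19 (the last −0.20 with library size as the only scaling), beside −0.07, 0.05 and −0.08 for all genes. Arntl (BMAL1), the activator that REV-ERBs repress, stood at 11.6 and 9.89 CPM with the peptide, 25.0 CPM in CAM and 43.5 CPM in M-CSF. It fell with the peptide by 1.22 over CAM (log2, SE 0.234, adjusted p = 0.00151) and by 2.02 over M-CSF. In CAM over M-CSF, where Nr1d1 and Nr1d2 were lower, Arntl was lower too, by 0.80 (SE 0.266, adjusted p = 0.0270). Npas2, another activator known as a REV-ERB target, had 0.344 and 0.499 CPM with the peptide, was listed at 0 in CAM, and had 5.96 CPM in M-CSF.

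Dbp and Tef, PAR-domain factors that carry the clock's output, had their lowest level in CAM. Dbp had 4.81 and 2.24 CPM with the peptide, 0.216 CPM (2 counts) in CAM and 12 CPM in M-CSF. Tef had 65.9 and 51.8 CPM with the peptide, 20.2 CPM in CAM and 98.8 CPM in M-CSF. Tef fell by 2.29 in CAM (log2, SE 0.237, adjusted p = 5.06e-06) and rose with the peptide by 1.54 over CAM (SE 0.215, adjusted p = 1.63e-04), while it stayed lower than M-CSF. Nfil3, a repressor that competes with these factors, stood at 114 and 98.8 CPM with the peptide, 56.2 CPM in CAM and 16.6 CPM in M-CSF and was called higher in all 3 comparisons. The period genes Per1 (also on the list of glucocorticoid receptor targets) and Per2 rose with the peptide over CAM, by 1.62 ± 0.301 and 1.08 ± 0.313 (log2). Per1 stood at 40.6 and 26.8 CPM with the peptide, 10.9 CPM in CAM and 9.78 CPM in M-CSF. Bhlhe40 and Ciart, repressors of the clock, fell with the peptide over CAM. Bhlhe40 had 2.49 and 3.49 CPM with the peptide, 9.31 CPM in CAM and 0.130 CPM (2 counts) in M-CSF. Cry1, a cryptochrome repressor, stood at 18.8 and 13.7 CPM with the peptide, 20.0 CPM in CAM and 5.31 CPM in M-CSF and did not pass between the peptide group and CAM.

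**Figure D3:**
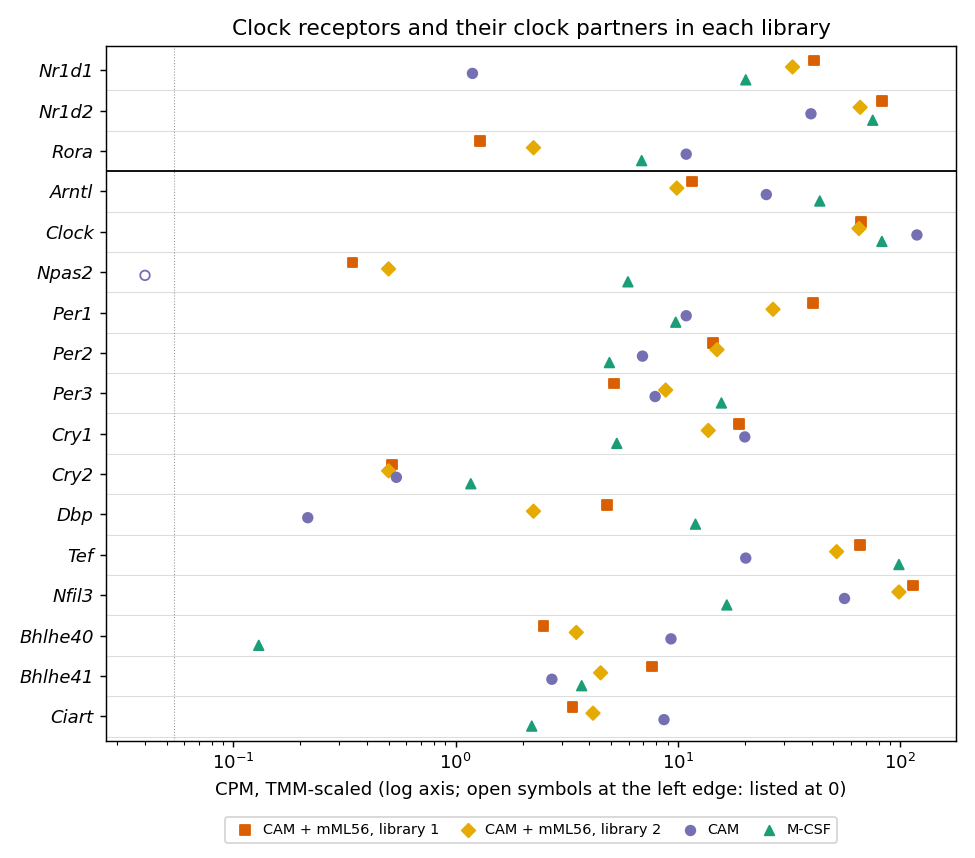
Levels of Nr1d1, Nr1d2, Rora and the 14 tested clock partners in each library, in TMM-scaled CPM on a log axis with 1 point per library, and an open symbol at the left edge for a gene listed at 0. Nr1d1, Tef and Dbp have their lowest point in CAM, and Arntl and Rora have theirs in the peptide libraries.

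Retinoids are bound by RXRs and retinoic acid receptors, and Rxrb and Rara were lower in CAM than in M-CSF. Rxra (RXRα, chr2:27676440-27762957) had 8.86 and 10.5 CPM with the peptide, was listed at 0 in CAM and had 9.91 CPM in M-CSF. The test called it lower in CAM over M-CSF (adjusted p = 5.05e-06) and higher in the peptide group over CAM (adjusted p = 1.55e-05). Both calls rest on that 0, which may be a failed estimate as for Eif1, and no fold is given against it. Between the peptide group and M-CSF the log2 difference was −0.04 ± 0.326 (adjusted p = 0.941).

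Rxrb (RXRβ, chr17:34031812-34038393) stood at 29.1 and 32.2 CPM with the peptide, 9.63 CPM in CAM and 32.1 CPM in M-CSF, and only the CAM library stood apart. It fell in CAM by 1.74 (log2, SE 0.274, adjusted p = 1.94e-04) and rose with the peptide over CAM by 1.67 (SE 0.252, adjusted p = 2.76e-04). Against M-CSF the peptide group differed by −0.07 ± 0.217 (adjusted p = 0.829). Rara (RARα, chr11:98927818-98974942) stood at 37.7 and 36.6 CPM with the peptide, 15.9 CPM in CAM and 58.9 CPM in M-CSF, with the peptide libraries between the other groups. It fell in CAM by 1.89 (log2, SE 0.237, adjusted p = 2.74e-05), and with the peptide rose over CAM by 1.22 (SE 0.215, adjusted p = 8.16e-04). It was lower than M-CSF by 0.67 with the peptide (log2 fold change −0.67 ± 0.187, adjusted p = 0.0119), which DESeq2 did not call. Rarg (RARγ) had 1.98 and 3.24 CPM with the peptide, 1.19 CPM in CAM and 0.713 CPM in M-CSF; its log2 difference of 1.86 between the peptide group and M-CSF had an adjusted p of 0.0503 and passed with relative log expression size factors.

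Genes that make, carry, store and break down retinoids, with the retinoid target Tgm2, formed a list of 16 measured genes, 7 of them tested. With CAM set against M-CSF, 2 (28.6%) were higher and 1 (14.3%) lower. In the peptide group over CAM 1 was higher and 1 lower (14.3% each). In the peptide group over M-CSF 2 (28.6%) were higher and 1 (14.3%) lower. Tgm2 was among those higher in both comparisons with M-CSF. The medians were 0.58, −0.44 and −0.19 (the first 0.11 and the last −0.57 with library size as the only scaling), beside −0.07, 0.05 and −0.08 for all genes. Dhrs3, a retinal reductase that retinoic acid is known to induce, stood at 165 and 145 CPM with the peptide, 39.0 CPM in CAM and 710 CPM in M-CSF. It fell by 4.19 in CAM (log2, SE 0.226, adjusted p = 1.21e-08). With the peptide it rose over CAM by 1.99 (SE 0.194, adjusted p = 1.24e-05), while it stayed lower than M-CSF. Its directions were those of Rara, at other sizes. Tgm2, a transglutaminase that is a retinoid target in other cells, did otherwise: it had 3334 and 3589 CPM with the peptide, 2950 CPM in CAM and 192 CPM in M-CSF, and did not pass between the peptide group and CAM. Rdh11, a retinal reductase, fell with the peptide over CAM by 0.77 (log2, SE 0.217, adjusted p = 0.0143).

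Pparg (PPARγ, chr6:115360951-115490399), which binds fatty acid derivatives and governs lipid uptake and storage, stood at 7.31 and 4.65 CPM with the peptide, 1.30 CPM in CAM and 28.4 CPM in M-CSF. The groups did not overlap, with M-CSF the highest. It fell in CAM by 4.44 (log2, SE 0.469, adjusted p = 5.94e-06), rose with the peptide over CAM by 2.19 (SE 0.454, adjusted p = 0.00242), and was lower with the peptide than in M-CSF (−2.25 ± 0.305, adjusted p = 5.20e-05). The CAM value rests on 12 counts, and the counting interval of the peptide over CAM ratio of 4.59 runs from 2.55 to 9.09. Ppard (PPARδ), at 6.88 and 8.14 CPM with the peptide, 4.11 CPM in CAM and 5.83 CPM in M-CSF, passed in no comparison.

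PPAR targets, chiefly genes of fatty acid transport, storage and oxidation, formed a list of 16, of which 15 were tested. In CAM over M-CSF 3 (20.0%) were higher and 7 (46.7%) lower, or 2 and 10 with library size as the only scaling. In the peptide group over CAM 4 (26.7%) were higher and 3 (20.0%) lower. In the peptide group over M-CSF 3 (20.0%) were higher and 7 (46.7%) lower. The medians were −0.60, 0.00 and −0.61, beside −0.07, 0.05 and −0.08 for all genes. Plin2, which coats lipid droplets, and Fabp5, a fatty acid carrier, fell in CAM and rose with the peptide. Plin2 had 78.1 and 79.6 CPM with the peptide, 41.1 CPM in CAM and 81.3 CPM in M-CSF. Fabp4, the related carrier that is a textbook PPARγ target, stood at 4.47 and 1.83 CPM with the peptide, 16.0 CPM in CAM and 21.6 CPM in M-CSF, and fell by 2.35 with the peptide over CAM (log2, SE 0.390, adjusted p = 5.58e-04), opposite in sign to Pparg. Cd36, a fatty acid scavenger receptor, fell with the peptide over CAM as well, by 0.55 (SE 0.202, adjusted p = 0.0462). Ucp2, a mitochondrial carrier, had 273 and 231 CPM with the peptide, 210 CPM in CAM and 1004 CPM in M-CSF. Angptl4, a secreted inhibitor of lipoprotein lipase, was listed at 0 in both peptide libraries and in CAM and stood at 16.1 CPM in M-CSF. Hilpda, a lipid droplet protein also known as a hypoxia target, and Acsl1, which activates fatty acids, were higher in both activated groups. Hilpda had 178 and 166 CPM with the peptide, 146 CPM in CAM and 2.66 CPM in M-CSF.

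Nr3c1, the glucocorticoid receptor, stood at 455 and 398 CPM with the peptide, 519 CPM in CAM and 163 CPM in M-CSF. All 3 activated libraries were above M-CSF. It rose in CAM by 1.67 (log2, SE 0.205, adjusted p = 2.22e-05) and in the peptide group over M-CSF by 1.39 (SE 0.185, adjusted p = 4.49e-05). The peptide group over CAM gave −0.28 ± 0.171 (adjusted p = 0.209). Nr3c2, the mineralocorticoid receptor, at 0.344 and 1.41 CPM with the peptide, 1.41 CPM in CAM and 2.53 CPM in M-CSF, passed in no comparison.

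Chaperones of the glucocorticoid receptor, with enzymes that make, activate or inactivate its ligand, formed a list of 12, all tested. In CAM over M-CSF 3 (25.0%) were higher and 1 (8.33%) lower. In the peptide group over CAM 4 (33.3%) were higher and 2 (16.7%) lower. With the peptide over M-CSF 5 (41.7%) were higher and 1 (8.33%) lower, the last being Hsd11b2, which inactivates the ligand. Hsd11b2 was of low level, with 4 and 12 counts in the peptide libraries, 8 in CAM and 42 in M-CSF. The medians were 0.38, 0.61 and 0.81, beside −0.07, 0.05 and −0.08 for all genes; the first became −0.10 with library size as the only scaling. Hspa8, an HSP70 chaperone, stood at 1344 and 1240 CPM with the peptide, 145 CPM in CAM and 742 CPM in M-CSF. It fell by 2.36 in CAM (log2, SE 0.222, adjusted p = 2.05e-06) and rose with the peptide over CAM by 3.16 (SE 0.216, adjusted p = 1.33e-06). Hsp90aa1, an HSP90 chaperone, had 29.0 and 25.1 CPM with the peptide, 10.8 CPM in CAM and 0.194 CPM (3 counts) in M-CSF. It rose with the peptide over CAM by 1.32 (SE 0.274, adjusted p = 0.00243). Hsp90ab1, another HSP90 gene, had 4.47 and 4.49 CPM with the peptide, 7.25 CPM in CAM and 1.49 CPM in M-CSF. Both were among the 3 called higher in CAM over M-CSF. Their low M-CSF values may be doubtful, like that of Rplp0. Por, the reductase that supplies cytochrome P450 enzymes with electrons, rose with the peptide over CAM by 1.64 (SE 0.180, adjusted p = 3.00e-05). Ptges3, the p23 cochaperone, was uneven between the peptide libraries, at 1.98 and 0.166 CPM, with 13.6 CPM in CAM and 0.583 CPM in M-CSF.

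Genes known as glucocorticoid receptor targets formed a list of 16, with 14 tested. With CAM set against M-CSF, 4 (28.6%) were higher and 5 (35.7%) lower. In the peptide group over CAM 5 (35.7%) were higher and 2 (14.3%) lower. In the peptide group over M-CSF 6 (42.9%) were higher and 4 (28.6%) lower. The medians were 0.37, 0.53 and 0.41 (the first −0.11 and the last 0.02 with library size as the only scaling), beside −0.07, 0.05 and −0.08 for all genes. Those that rose with the peptide over CAM included Klf9, Per1, Zfp36 and Dusp1. Klf9, a zinc finger factor, stood at 12.3 and 12 CPM with the peptide, 4.0 CPM in CAM and 13.0 CPM in M-CSF. Dusp1, a MAP kinase phosphatase that LPS induces too, had 334 and 289 CPM with the peptide, 187 CPM in CAM and 12.4 CPM in M-CSF. Nfkbia, an inhibitor of NF-kB that is also its target, had 543 and 586 CPM with the peptide, 485 CPM in CAM and 40.0 CPM in M-CSF and did not pass between the peptide group and CAM. Tsc22d3 (GILZ), the classic target, had 2.92 and 3.74 CPM with the peptide, 1.84 CPM in CAM and 6.93 CPM in M-CSF and was called only in CAM over M-CSF, lower. Cd163, the haptoglobin receptor of macrophages, stood at 0.258 and 0.499 CPM with the peptide, 2.92 CPM in CAM and 71.0 CPM in M-CSF. Sgk1, a kinase, fell with the peptide over CAM by 1.86 (log2, SE 0.258, adjusted p = 1.53e-04).

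The estrogen receptors are steroid receptors like Nr3c1. Esr1 (ERα) stood at 28.8 and 24.2 CPM with the peptide, 19.5 CPM in CAM and 16.1 CPM in M-CSF. It was called higher in the peptide group over M-CSF, by 0.72 ± 0.242 (log2, adjusted p = 0.0303); with library size as the only scaling the value was 0.32 and not called, nor did DESeq2 call it. Esr2 (ERβ) had 0.516 and 0.748 CPM with the peptide, 2.81 CPM in CAM and 1.75 CPM in M-CSF. It fell by 2.13 on the log2 scale with the peptide over CAM (SE 0.692, adjusted p = 0.0280), from 26 counts in CAM, and was not called by DESeq2 or with library size as the only scaling. Pgr, the progesterone receptor, had no count.

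The estrogen-related receptors bind no estrogen and control mitochondrial genes. Esrra (ERRα) had 4.21 and 2.83 CPM with the peptide, 0.325 CPM in CAM and 1.88 CPM in M-CSF. It was called lower in CAM over M-CSF (adjusted p = 0.0343) and higher in the peptide group over CAM (adjusted p = 0.00516), in neither case by DESeq2. The CAM value is 3 counts: the ratio of CAM to M-CSF was 0.173, with a counting interval from 0.0337 to 0.558, and that of the peptide libraries to CAM was 10.8, with a counting interval from 3.57 to 53.4. Esrra overlaps Trmt112 on the opposite strand, so its reads cannot be told apart with certainty. Esrrg (ERRγ), at 0.516 and 0.914 CPM with the peptide, 1.62 CPM in CAM and 1.10 CPM in M-CSF, passed in no comparison.

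The NR4A receptors are orphan immediate early factors without a usual ligand pocket. Nr4a1 (NUR77, chr15:101266846-101274792) stood at 1.20 and 3.24 CPM with the peptide, 0.649 CPM in CAM and 16.5 CPM in M-CSF, and all activated libraries were below M-CSF. It fell in CAM by 4.64 (log2, SE 0.698, adjusted p = 1.29e-04) and was lower with the peptide than in M-CSF (−2.88 ± 0.453, adjusted p = 1.89e-04). The peptide group over CAM gave 1.76 ± 0.708 (adjusted p = 0.0669), which passed with relative log expression size factors. The CAM value rests on 6 counts, and the counting interval of the ratio of 3.45 runs from 1.48 to 9.82.

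Nr4a2 (NURR1, chr2:57106830-57124003) went the other way. It had 10.8 and 11 CPM with the peptide, 10.8 CPM in CAM and 2.79 CPM in M-CSF, so that the 3 activated libraries were nearly level. It rose in CAM by 1.95 (log2, SE 0.388, adjusted p = 0.00117) and in the peptide group over M-CSF by 1.96 (SE 0.351, adjusted p = 5.31e-04), and the peptide group over CAM gave 0.01 ± 0.312 (adjusted p = 0.984). Nr4a3 (NOR1), at 1.03 and 0.997 CPM with the peptide, 1.95 CPM in CAM and 0.972 CPM in M-CSF, passed in no comparison.

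Among the testicular and COUP-TF related receptors, mostly orphan repressors, 3 were lower with the peptide than in M-CSF. Nr2c2 (TR4) stood at 61.3 and 55.0 CPM with the peptide, 91.1 CPM in CAM and 96.3 CPM in M-CSF, with the peptide libraries below both others. It fell with the peptide by 0.65 over CAM (log2, SE 0.168, adjusted p = 0.00910) and by 0.73 over M-CSF (SE 0.165, adjusted p = 0.00309). Nr2c1 (TR2) had 7.22 and 10.3 CPM with the peptide, 12.8 CPM in CAM and 20.2 CPM in M-CSF, and was lower with the peptide than in M-CSF by 1.20 (log2 fold change −1.20 ± 0.282, adjusted p = 0.00382). Nr2f6 (EAR2) had 4.38 and 4.15 CPM with the peptide, 6.39 CPM in CAM and 9.26 CPM in M-CSF, and was lower with the peptide than in M-CSF (−1.12 ± 0.349, adjusted p = 0.0208). DESeq2 called none of these. With library size as the only scaling Nr2c1, Nr2c2 and also Nr6a1 (GCNF), the germ cell nuclear factor, passed as lower in CAM over M-CSF. Nr6a1 stood at 6.36 and 9.31 CPM with the peptide, 6.06 CPM in CAM and 10.4 CPM in M-CSF. Nr2c2 overlaps Mrps25 and Nr2f6 overlaps Ocel1. Nr2e3, a photoreceptor factor, stayed under 1 CPM in every library.

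Supply and breakdown genes of vitamin D and thyroid hormone formed a list of 12, with 5 tested. In CAM over M-CSF, and also in the peptide group over CAM, 1 (20.0%) was higher and 2 (40.0%) lower. In the peptide group over M-CSF none was higher and 3 (60.0%) were lower. The medians of these 5 genes were −0.95, −0.77 and −2.97, beside −0.07, 0.05 and −0.08 for all genes. The first and last are the values of Cyp2r1, which had 3 and 5 counts with the peptide, 13 in CAM and 42 in M-CSF. Dio2, called lower with the peptide over CAM and over M-CSF, had 1 and 2 counts with the peptide. Cyp27a1, a sterol hydroxylase, had 3.35 and 1.08 CPM with the peptide, 1.19 CPM in CAM and 148 CPM in M-CSF. Lgmn, an endosomal protease, had 1955 and 1539 CPM with the peptide, 564 CPM in CAM and 1566 CPM in M-CSF. Slc16a10, a thyroid hormone and amino acid transporter, had 108 and 91.8 CPM with the peptide, 171 CPM in CAM and 91.5 CPM in M-CSF.

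Receptors act through coactivators and corepressors, of which 19 of 20 listed were tested. With CAM set against M-CSF, and also in the peptide group over CAM, 2 (10.5%) were higher and 4 (21.1%) lower. In the peptide group over M-CSF 1 (5.26%) was higher and 6 (31.6%) lower. With library size as the only scaling the counts were 0 and 12 in CAM over M-CSF and 0 and 11 in the peptide group over M-CSF. Under that scaling 13.8% of all tested genes were higher and 34.6% lower in CAM over M-CSF. In the peptide group over M-CSF the shares were 14.6% and 29.4%. The medians were −0.32, −0.03 (0.06 with library size as the only scaling) and −0.53, beside −0.07, 0.05 and −0.08 for all genes. Ncor1, a corepressor, stood at 195 and 213 CPM with the peptide, 439 CPM in CAM and 322 CPM in M-CSF. With the peptide over CAM, Ncor1 fell by 1.10 (log2, SE 0.162, adjusted p = 2.26e-04). Crebbp (CBP), a histone acetyltransferase coactivator, had 172 and 185 CPM with the peptide, 338 CPM in CAM and 259 CPM in M-CSF and fell over CAM by 0.92 (SE 0.160, adjusted p = 7.60e-04). Ncoa4, a coactivator that also delivers ferritin for breakdown, had 166 and 127 CPM with the peptide, 149 CPM in CAM and 625 CPM in M-CSF. Gps2, a corepressor subunit, had 12.9 and 18.9 CPM with the peptide, 18.5 CPM in CAM and 52.7 CPM in M-CSF. Med1, a subunit of the Mediator complex, rose in CAM over M-CSF by 0.77 (SE 0.187, adjusted p = 0.00460).

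The peptide libraries were the only pair of one group. Among the 24 tested receptors with a count in both, the median size of the log2 ratio of library 1 to library 2 was 0.42, and 3 differed by 2-fold or more: Nr3c2 (−2.04), Nr4a1 (−1.43) and Thra (−1.13). Among the 13 receptors whose mean of the pair was 5 CPM or more the median size was 0.24, the largest 0.65 and none reached 2-fold. The differences of Nr1d1, Pparg, Rara and Rxrb between the peptide group and CAM were larger than the gap between these libraries. That gap is also the spread behind the test that called them, so this comparison adds no support. Ppard, which was not called, exceeded its gap too (0.87 over CAM, ratio of the libraries −0.24, both log2). The gap does not measure the spread of the single CAM library.

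**Figure D4:**
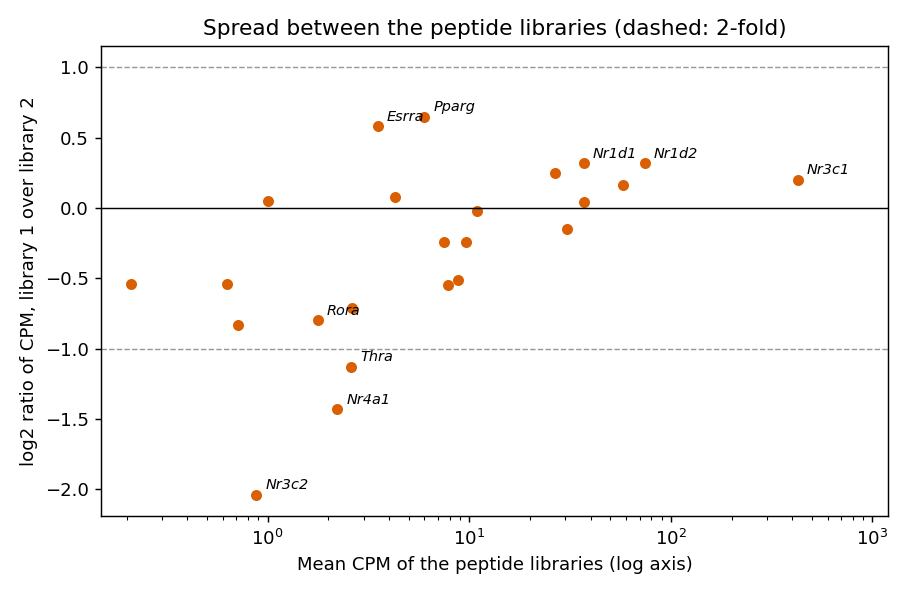
Log2 ratio of peptide library 1 over peptide library 2 for the tested receptors with a count in both, against their mean level in CPM (log axis). Receptors with a mean of 5 CPM or more lie within 0.65 of 0, and the wider gaps, as for Nr3c2, belong to receptors of low level.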

How the data were processed

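Values were deposited as estimated counts for each gene, with no scaling. Per the submitters' processing notes, the tools were kallisto and StringTie and the build mm10. No source used here gives the version of kallisto, the annotation release or the strand setting; the kit is directional, per the labels' protocols. Whole numbers (tolerance 1e-09) made up 61.3% to 69.3% of a library's values, zeros included. The column numbers of M-CSF (2) and CAM (1) are explained by no label, and 1 peptide column was placed by its group only. A chi-square of 205134 (14015 degrees of freedom) put the peptide libraries apart by more than counting noise, and they were counted as 2. After rounding, 13199 of 32617 genes had no count and 14104 passed edgeR's filterByExpr (edgeR 4.0.16, R 4.3.3). The quasi-likelihood F test was fitted on all 4 libraries in 3 groups with TMM factors (0.906, 0.993, 0.894 and 1.24 for peptide libraries 1 and 2, CAM and M-CSF), Benjamini-Hochberg adjustment and a threshold of 0.05. The residual degree of freedom was 1, with prior degrees of freedom 11.8 and a biological coefficient of variation of 0.161. Log2 fold changes carry a prior count of 0.125, and SE is the log2 fold change over the square root of F. Counting intervals (95%, exact) and limits of a 0 (3 counts) cover counting error only. Exon lengths and overlaps came from GENCODE M21, and starts from RefSeq (GRCm38.p6).

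The members and gene lists were chosen with earlier results of these data known. Values in full are given for members past the threshold in 1 comparison or more with at least 5 CPM in a library. From each list, up to 3 genes per direction and comparison with the largest fold change past the threshold and 5 CPM in the higher group could be named; Eif1 and Rplp0 were chosen after their values were seen. Alternatives were relative log expression size factors, library size only, no filter on low counts, DESeq2 1.42.0 and leaving out each peptide library. Code was tested on simulated data. Values of some listed genes are not reported here.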

Additional observations from a re-analysis of the deposited data

How the results depend on the processing

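No receptor past the threshold changed direction in an alternative run. The counts of receptors that moved by over 1.5 times were these. With library size as the only scaling, 14 receptors (8 with TMM) were lower by 2-fold or more in CAM over M-CSF, and 2 (4 with TMM) were called higher in the peptide group over M-CSF. Of all tested genes, 5253 (3709 with TMM) were lower by 2-fold or more and 14.6% (22.1%) were called higher in the same comparisons. With no filter on low counts, which adds 9 receptors of few counts, the receptors at 2-fold or more were 13 lower in CAM over M-CSF (8 with the filter), 16 higher in the peptide group over CAM (9) and 5 higher in the peptide group over M-CSF (3). With DESeq2, 1 receptor (3 with edgeR) was called lower in the peptide group over CAM, and 2 (4) were called higher and 2 (7) lower in the peptide group over M-CSF. Calls over all tested genes were fewer with DESeq2 too. It called 6.59% lower over CAM (17.1% with edgeR), and 15.1% (22.1%) higher and 8.19% (19.0%) lower over M-CSF. The receptor shares with DESeq2 were 4.0% lower over CAM, and 8.0% higher and 8.0% lower over M-CSF. Leaving out a peptide library leaves no residual degree of freedom, so only values could be compared. In those runs the receptors lower by 2-fold or more in the peptide group over CAM numbered 2 to 5 (4 with both libraries), and those higher by 2-fold or more over M-CSF 4 to 5 (3 with both). Without peptide library 2, 4 receptors moved by more than their SE over CAM, with log2 values of 0.92 for Nr4a1 (1.76 with both), −1.96 for Nr3c2 (−0.67) and −0.90 for Thra (−0.27), and Rorb, which then had no count in either group. Over M-CSF 6 moved, to −3.69 for Nr4a1 (−2.88), −2.77 for Nr3c2 (−1.51), −1.89 for Pparg (−2.25), −0.22 for Thra (0.38) and 0.21 for Nr1d2 (−0.02), and Rorb. Without peptide library 1, 2 moved over M-CSF, to −2.34 for Nr4a1 and −2.61 for Pparg. With library size as the only scaling 2 retinoid genes (1 with TMM) were lower in CAM over M-CSF. In the peptide group over M-CSF 1 (2) was higher and 2 (1) were lower. There 2 genes (1) of the list of glucocorticoid receptor chaperones and ligand enzymes were lower as well. The medians under that scaling in CAM and the peptide group over M-CSF were −1.14 and −0.45 for the receptors (−0.66 and −0.07 with TMM). They were −0.79 and −0.92 for coregulators, −1.07 and −1.0 for PPAR targets, and −1.42 and −3.35 for 5 tested vitamin D and thyroid hormone genes. For clock partners they were −0.62 and −0.20, and for the chaperones and ligand enzymes −0.10 and 0.41, beside −0.55 and −0.46 for all genes. The causes of these changes were not tested. No paired analysis was possible because M-CSF and CAM had 1 library each and no replicate number in the labels joins libraries of different groups. The filter left 19 receptors untested, and the CAM values of Esrra, Nr4a1, Nr1d1 and Pparg rest on 3, 6, 11 and 12 counts.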
